A study of Mus musculus with 6 samples.

Results

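The tumor necrosis factor (TNF) receptor superfamily is a group of cell surface receptors, and 10 of its members were followed here in bone marrow-derived macrophages (BMDMs). The 10 genes were taken by symbol from a table of 55335 mouse genes. They were *Tnfrsf1a*, *Tnfrsf1b*, *Fas*, *Tnfrsf9*, *Tnfrsf11a*, *Tnfrsf13b*, *Tnfrsf14*, *Tnfrsf21*, *Tnfrsf22* and *Ltbr*, and all 10 were among the 13367 genes tested, those averaging 0.5 FPKM or more (fragments per kilobase, a level corrected for transcript length and library size). RNA-seq had been performed on 6 libraries of BMDMs of WT genotype, grown from bone marrow for 7 days with 25 ng/ml of macrophage colony-stimulating factor. Of these, 3 libraries (WT N) were labelled as co-cultured with neutrophils of *Cd177* WT mice, and 3 libraries (KO N) with neutrophils of *Cd177* KO mice. In both groups the neutrophils came from the injured spinal cord at 3 days post injury (dpi) and stayed with the macrophages for 24 h. Macrophages were then sorted as Ly6G-negative cells, a gate set against neutrophils that did not select for a macrophage marker. The labels do not say how many mice stand behind a library, and the p-values measure only the spread between these 6 libraries. The comparison asks which receptors of the family differ in macrophages according to the genotype of the neutrophils they met.

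Receptors of this family bind trimeric ligands of the TNF superfamily through cysteine-rich repeats outside the cell. Some members, such as TNFR1 and Fas, carry a death domain and can start either cell death or inflammatory signalling. Others recruit TRAF adaptors and lead to NF-kB, and a further set binds ligand without a working signalling domain and acts as a decoy. Macrophages are a main source of TNF and also respond to it, and RANK, another member, is the receptor through which their precursors become osteoclasts.

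The general state of the libraries was as follows. The 3 WT N libraries correlated with each other at r = 0.967 to 0.985 and the 3 KO N libraries at 0.977 to 0.984, while pairs across the groups reached 0.905 to 0.917. On the second principal component (13.5% of the variance, against 70.8% on the first), replicate 3 of each group lay apart from replicates 1 and 2. Whole read counts could not be recovered from the FPKM values, and the steps between low values implied a depth of 17620000 to 20230000 fragments per library. *Cd177*, the gene deleted in the neutrophil donors of the KO N group, was at 0.544, 0.309 and 0.521 FPKM in the WT N libraries and at 1.79, 1.84 and 2.28 FPKM in the KO N libraries. It was therefore higher in each library labelled KO than in any labelled WT (log2 fold change 1.37, SE 0.16, adjusted p = 0.000827 by limma), opposite to the labelled genotype of the neutrophils. The macrophages themselves were of WT genotype, and the paper reports low *Cd177* expression in macrophages and microglia. The sources used here do not say which part of the gene was deleted, and which cells carried the transcript was not tested. Most tested neutrophil markers were also higher in KO N, as given below. *Cd177* thus does not settle the labels, and the directions below are those of the libraries as labelled. Macrophage transcripts were abundant in all 6 libraries, with *Csf1r*, the receptor for macrophage colony-stimulating factor, at 232 to 293 FPKM. Mitochondrial genes took 4.57% to 5.73% of the summed FPKM in WT N and 6.57% to 7.28% in KO N, a separation of the groups whose part in the results below was not tested. The median of all tested genes was 0.19 higher on the log2 scale in the KO N libraries, and this shift was -0.014 after median-of-ratios scaling.

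Among the 10 receptors, 2 were called higher in the KO N libraries, 1 was called lower and 7 did not pass the test (limma on log2(FPKM + 0.5), Benjamini-Hochberg adjusted p under 0.05). Of all 13367 genes tested, 27.1% were called higher and 10.5% lower, so as deposited neither count of receptors stands out from the background. *Tnfrsf13b*, which encodes TACI, and *Tnfrsf11a*, which encodes RANK, rose, and *Tnfrsf22*, a decoy receptor, fell. The FPKM ranges of WT N and KO N were separate in 7 of the 10 receptors, where 51.9% of all tested genes had no overlap. The log2 fold changes of the receptors were above 0 in 5 and below 0 in 5, with a median of 0.06. Over the whole table, 3619 genes were called higher and 1408 lower as deposited, and 2044 higher and 2263 lower after median-of-ratios scaling. The 3 calls in the family were made under both scalings. After median-of-ratios scaling *Tnfrsf9*, *Tnfrsf1b* and *Ltbr* were called lower as well, which made 4 of the 10 receptors lower.

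**Figure D1:**
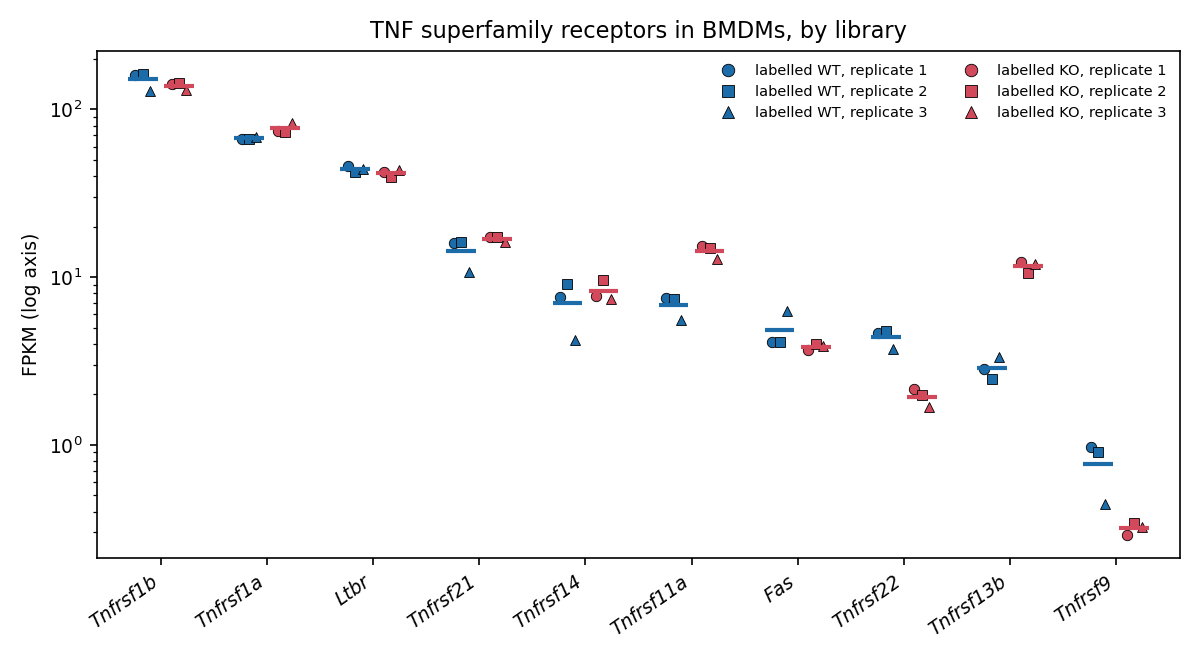
FPKM (log axis) of each of the 10 receptors in the 3 WT N and the 3 KO N libraries, 1 point per library with a bar at the mean. *Tnfrsf13b* and *Tnfrsf11a* sit higher and *Tnfrsf22* lower in all 3 KO N libraries, while *Tnfrsf1b*, *Ltbr* and *Tnfrsf14* overlap between the groups.

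The receptors spanned a wide range of levels, and FPKM, which is per length of transcript, allows them to be ordered. In the WT N libraries the order of the mean levels was *Tnfrsf1b*, *Tnfrsf1a*, *Ltbr*, *Tnfrsf21*, *Tnfrsf14*, *Tnfrsf11a*, *Fas*, *Tnfrsf22*, *Tnfrsf13b* and *Tnfrsf9*. The ranges of *Tnfrsf14* and *Tnfrsf11a*, of *Tnfrsf11a* and *Fas*, and of *Fas* and *Tnfrsf22* overlapped there, so these neighbours did not differ beyond their spread. In the KO N libraries the first 4 places were the same, followed by *Tnfrsf11a*, *Tnfrsf13b*, *Tnfrsf14*, *Fas*, *Tnfrsf22* and *Tnfrsf9*, and no neighbours overlapped. *Tnfrsf13b* thus stood ninth in each WT N library and sixth in each KO N library. The 10 receptors summed to 276 to 317 FPKM in WT N and to 312 to 319 FPKM in KO N. *Tnfrsf1b*, *Tnfrsf1a* and *Ltbr* made up 85.9% to 87.6% of that sum in WT N and 81.4% to 82.6% in KO N.

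The promoters of the pair of receptors that rose are shown because they differ in base composition, which the choice of the genes did not use. The 250 bases before the RefSeq start (GRCm38.p6) are given 5′ to 3′ on the plus strand, with each CG dinucleotide in capitals. The *Tnfrsf13b* window is chr11:61126505-61126754 and the *Tnfrsf11a* window is chr1:105780473-105780722.
Tnfrsf13b: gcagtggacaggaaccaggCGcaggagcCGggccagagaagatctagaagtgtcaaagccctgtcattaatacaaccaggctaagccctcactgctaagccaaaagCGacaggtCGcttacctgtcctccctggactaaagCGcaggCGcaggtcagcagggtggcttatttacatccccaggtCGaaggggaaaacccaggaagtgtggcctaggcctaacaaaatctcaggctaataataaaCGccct
Tnfrsf11a: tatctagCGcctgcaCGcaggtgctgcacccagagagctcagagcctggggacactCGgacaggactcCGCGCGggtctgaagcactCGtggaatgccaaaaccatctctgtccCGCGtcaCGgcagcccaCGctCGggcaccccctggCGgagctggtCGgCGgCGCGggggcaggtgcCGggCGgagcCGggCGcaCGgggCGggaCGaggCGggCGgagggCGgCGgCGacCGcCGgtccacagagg
The *Tnfrsf11a* window held 31 CG dinucleotides at a GC content of 73.6%, and the *Tnfrsf13b* window held 8 at 54%. Over 32851 mouse promoter windows of the same length the medians were 6 CG dinucleotides and 52.4% GC, and 95.4% and 59.7% of windows held no more CG than *Tnfrsf11a* and *Tnfrsf13b*, respectively. RefSeq windows were matched for 9 of the 10 receptors (10 windows, of which *Tnfrsf9* has a pair), and *Tnfrsf22* was not matched. The matched receptors that were not called differed in composition as well. Their CG counts ran from 2 at 49.2% GC (*Tnfrsf14*) to 18 at 69.2% GC (*Ltbr*).

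Binding motifs of factors that act in macrophages were searched in these windows on both strands. An NF-kB consensus was found for *Tnfrsf9* alone, as the overlapping matches GGGGATTTCC, 43 to 34 bases before the start, and GGGATTTCCC, 42 to 33 bases before it. *Tnfrsf9* has a pair of windows, each with its own start, and which of them held each of its matches is not given here. This consensus lay in 7.25% of all windows. The STAT-binding GAS element TTCNNNGAA was found for *Tnfrsf1a*, *Tnfrsf1b*, *Fas* and *Tnfrsf9* (7.02% of all windows), and the PU.1 core GAGGAA for *Tnfrsf1b*, *Ltbr* and *Tnfrsf21* (23.3%). The core of the interferon-stimulated response element, GAAANNGAAA, lay in the windows of *Tnfrsf1b* and *Tnfrsf14* (2.98%), and the AP-1 element TGACTCA in those of *Tnfrsf9* and *Fas* (4.46%). None of these letters was found for *Tnfrsf13b* or *Tnfrsf11a*, so the windows of the genes that rose shared no searched motif. A match is a description of the sequence and was not tested for binding.

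The death domain receptors were present at very different levels and none was called. *Tnfrsf1a* encodes TNFR1, the main signalling receptor for soluble TNF, and lies at chr6:125349362-125362484. It was at 66.3, 67.0 and 68.9 FPKM in the WT N libraries and at 74.9, 73.4 and 83.4 FPKM in the KO N libraries. Each KO N value lay above each WT N value, but by little (67.4 ± 1.35 and 77.2 ± 5.38 FPKM, mean ± SD, n = 3 each). The log2 fold change was 0.19 (SE 0.08, 95% interval -0.00060 to 0.39, limma adjusted p = 0.107), as large as the shift of the median gene. After median-of-ratios scaling it was -0.035 and after upper-quartile scaling -0.021, so no direction can be given for *Tnfrsf1a*.

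*Fas* encodes the receptor for Fas ligand and lies at chr19:34290666-34327772. It was at 4.08, 4.10 and 6.29 FPKM in WT N and at 3.67, 3.97 and 3.87 FPKM in KO N. The groups did not overlap, and WT N replicate 3 stood well above the other 5 libraries. The log2 fold change was -0.27 (SE 0.17, 95% interval -0.67 to 0.13, limma adjusted p = 0.246), and without WT N replicate 3 it was -0.08. Its ligand *Fasl* was listed at 0 in 5 libraries and at 0.0287 FPKM in the remaining library, WT N replicate 3.

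*Tnfrsf21* encodes death receptor 6, a death domain receptor best known from neurons and lymphocytes, and lies at chr17:43016555-43089189. Its level was 16.0, 16.1 and 10.8 FPKM in WT N and 17.2, 17.3 and 16.3 FPKM in KO N. The KO N libraries were close together and above all WT N libraries, of which replicate 3 was the low one. Its log2 fold change was 0.26 (SE 0.16, 95% interval -0.12 to 0.64, limma adjusted p = 0.243), and it was 0.08 without WT N replicate 3.

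*Tnfrsf1b* encodes TNFR2, which lacks a death domain and responds best to membrane-bound TNF. At chr4:145213463-145246870, it was the most abundant of the 10 receptors in every library. It was at 160.7, 163.2 and 128.9 FPKM in WT N and at 142.6, 143.4 and 130.6 FPKM in KO N. The groups overlapped, since WT N replicate 3 was below all KO N libraries while the other WT N libraries were above them. The log2 fold change was -0.11 (SE 0.11, 95% interval -0.38 to 0.16, limma adjusted p = 0.471). The call depended on replicate and scaling: *Tnfrsf1b* was lower without WT N replicate 3 (-0.22, adjusted p = 0.0408) and after median-of-ratios scaling (-0.34, adjusted p = 0.0442).

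Since TNFR1 and TNFR2 share TNF as a ligand, the ratio of *Tnfrsf1b* to *Tnfrsf1a* was taken within each library, which removes any scaling between libraries. It was 2.42, 2.44 and 1.87 in WT N and 1.91, 1.95 and 1.57 in KO N (2.24 ± 0.323 and 1.81 ± 0.211, mean ± SD, n = 3 each). Replicate 3 had the lowest ratio of its group in both groups, and WT N replicate 3 fell among the KO N values. The difference of the log2 ratios was -0.31, with p = 0.3 in an exact permutation test (two-sided), where 3 against 3 libraries cannot give less than 0.1. *Tnf* itself, the ligand of both receptors, fell from 15.8, 15.4 and 18.9 FPKM in WT N to 8.36, 7.40 and 7.35 FPKM in KO N (log2 fold change -1.06, SE 0.11, limma adjusted p = 0.00051).

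The lymphotoxin beta receptor, encoded by *Ltbr* at chr6:125306571-125313885, binds lymphotoxin and LIGHT and signals to the non-canonical NF-kB pathway. It was at 45.7, 42.2 and 44.2 FPKM in WT N and at 42.4, 39.7 and 43.7 FPKM in KO N. The values of the groups were interleaved. *Ltbr* and *Tnfrsf1a* are neighbours on chromosome 6, with a gap of 35476 bases and 1 coding gene between them. The log2 fold change was -0.07 (SE 0.08, 95% interval -0.26 to 0.12, limma adjusted p = 0.52). After median-of-ratios scaling it was -0.30 with an adjusted p of 0.0392. Its ligand genes *Lta* and *Ltb* were low, at 0 to 0.114 FPKM and 0 to 0.534 FPKM in the 6 libraries, and were not tested.

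*Tnfrsf14* encodes HVEM, which shares the ligand LIGHT with the lymphotoxin beta receptor and also binds the inhibitory receptor BTLA. Located at chr4:154921933-154928563, it was at 7.59, 9.10 and 4.21 FPKM in WT N and at 7.70, 9.65 and 7.42 FPKM in KO N. WT N replicate 3 was again the low library, and the other 5 overlapped. Its log2 fold change was 0.28 (SE 0.26, 95% interval -0.34 to 0.91, limma adjusted p = 0.437) and -0.018 without WT N replicate 3. *Tnfsf14*, the gene of LIGHT, fell from 2.15, 2.10 and 2.09 FPKM in WT N to 0.567, 1.29 and 0.810 FPKM in KO N (log2 fold change -0.94, SE 0.20, limma adjusted p = 0.00975).

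*Tnfrsf9* encodes CD137, a costimulatory receptor of activated T cells that is also found on myeloid cells, and lies at chr4:150914562-150946102. It was the lowest of the 10 receptors, at 0.975, 0.903 and 0.441 FPKM in WT N and at 0.291, 0.340 and 0.324 FPKM in KO N. Every KO N library was below every WT N library, and WT N replicate 3 lay nearer to the KO N values than to its own group. Its log2 fold change was -0.61 (SE 0.20, 95% interval -1.09 to -0.12, limma adjusted p = 0.054), which did not pass the test. Without WT N replicate 3 it was -0.81 with an adjusted p of 0.00715, and after median-of-ratios scaling -0.72 with an adjusted p of 0.0337. At the implied depth these values stand for 17 to 39 fragments per library in WT N and 11 to 15 in KO N, so the counting error is large, and the pseudocount of 0.5 understates the fold. *Camta1* overlaps *Tnfrsf9* on the opposite strand without overlap of exons and had a mean of 0.379 FPKM. *Tnfsf9*, its ligand, fell from 5.32, 6.56 and 6.90 FPKM in WT N to 4.08, 3.92 and 4.06 FPKM in KO N (log2 fold change -0.57, SE 0.12, limma adjusted p = 0.00861).

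**Figure D2:**
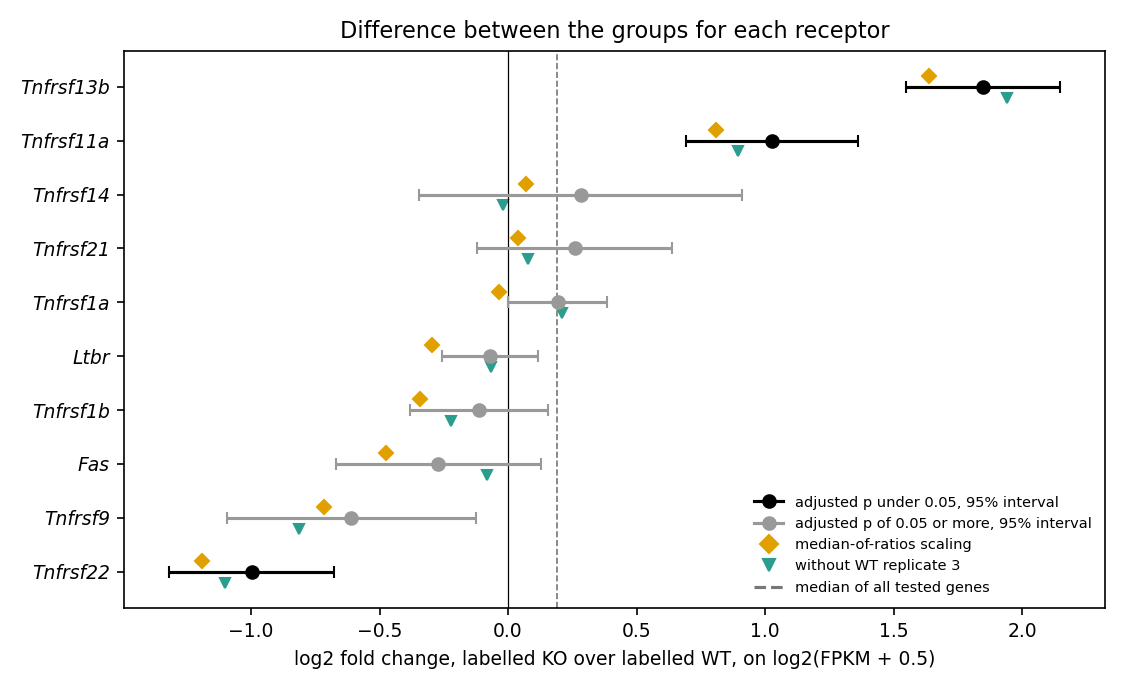
Log2 fold change (KO N against WT N, on the log2(FPKM + 0.5) scale) of each of the 10 receptors with its 95% interval, beside the value after median-of-ratios scaling and the value without WT N replicate 3, with black for called and gray for other receptors and a dashed line at the median of all tested genes. *Tnfrsf13b* and *Tnfrsf11a* lie above 0 and *Tnfrsf22* below 0 in all 3 displays, and *Tnfrsf1a* and *Tnfrsf14* change sign between them.

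RANK, the product of *Tnfrsf11a*, is the receptor for RANK ligand and drives the formation of osteoclasts from macrophage precursors. The gene lies at chr1:105780718-105847981. Its level was 7.48, 7.40 and 5.52 FPKM in WT N and 15.4, 14.8 and 12.7 FPKM in KO N. The lowest KO N library was well above the highest WT N library. *Tnfrsf11a* rose 2.10-fold by the ratio of means (6.80 ± 1.11 to 14.3 ± 1.38 FPKM, mean ± SD, n = 3 each). On the log2 scale the rise was 1.03 (SE 0.14, 95% interval 0.69 to 1.36, limma adjusted p = 0.0017). Leaving out each library in turn gave 0.89 to 1.11, and median-of-ratios scaling gave 0.81.

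The partners of RANK changed as well. *Tnfrsf11b*, which encodes osteoprotegerin, a secreted decoy for RANK ligand, rose from 6.51, 6.46 and 6.66 FPKM in WT N to 15.0, 15.9 and 14.6 FPKM in KO N (log2 fold change 1.15, SE 0.08, limma adjusted p = 9e-05). *Tnfsf11*, the gene of RANK ligand, fell from 2.20, 2.27 and 2.38 FPKM to 0.676, 0.872 and 1.33 FPKM (log2 fold change -0.96, SE 0.18, limma adjusted p = 0.00623). The receptor and the decoy were thus each higher, and the ligand lower, in all 3 KO N libraries. Osteoclast markers were not called higher: of 5 tested of 8 listed, none was higher and 3 were lower, with a median log2 fold change of -0.38. *Ctsk*, the bone-degrading protease cathepsin K, fell from 38.2, 39.1 and 43.5 FPKM to 16.0, 17.1 and 20.7 FPKM (log2 fold change -1.15, SE 0.12, limma adjusted p = 0.000476). *Dcstamp*, needed for osteoclast fusion, fell by 1.05 on the log2 scale (adjusted p = 0.0116), and *Acp5*, the acid phosphatase of osteoclasts, by 0.38 (adjusted p = 0.0483), a call that was lost whichever library was left out (adjusted p of 0.0559 to 0.157). *Tnfrsf11b* is also made by stromal cells. Fibroblast markers were present in both groups and their sums overlapped, at 417 to 597 FPKM in WT N and 493 to 555 FPKM in KO N. Of 6 tested of 7, 3 were called lower and none higher, and the 3 not called had log2 fold changes above 0. Those called lower were *Col3a1* (log2 fold change -0.97, adjusted p = 0.000197) and *Dcn* (-1.03, adjusted p = 0.00218), both matrix genes, and *Pdgfrb* (-0.68, adjusted p = 0.0464), a receptor of mesenchymal cells. The call of *Pdgfrb* was lost without any 1 library other than WT N replicate 3 (adjusted p of 0.0756 to 0.135). The part of such cells in the values of *Tnfrsf11b* was not tested.

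TACI, the product of *Tnfrsf13b*, is a receptor for BAFF and APRIL that is best known from B cells and is also found on macrophages. The gene lies at chr11:61126755-61149372. It was at 2.85, 2.47 and 3.34 FPKM in WT N and at 12.4, 10.5 and 12.0 FPKM in KO N. The groups were far apart, and the libraries within each group were close. *Tnfrsf13b* rose 4.04-fold by the ratio of means (2.88 ± 0.437 to 11.7 ± 0.975 FPKM, mean ± SD, n = 3 each). On the log2 scale the rise was 1.85 (SE 0.13, 95% interval 1.55 to 2.15, limma adjusted p = 8.48e-05). It was the receptor among the 10 with the largest change, and leaving out each library in turn gave 1.76 to 1.94. In these bulk libraries, more cells of a type that expresses a gene and more RNA of that gene per cell cannot be told apart.

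The ligands of TACI were low in both groups. *Tnfsf13*, the gene of APRIL, rose from 0.612, 0.792 and 0.441 FPKM in WT N to 1.23, 1.10 and 1.65 FPKM in KO N (log2 fold change 0.71, SE 0.18, limma adjusted p = 0.0211), a call that was lost after median-of-ratios scaling (0.57, adjusted p = 0.0515), after quantile normalization (0.46, adjusted p = 0.0907), without a filter on low values, and without WT N replicate 1, KO N replicate 1 or KO N replicate 3 (adjusted p of 0.0563 to 0.0637). *Tnfsf13b*, the gene of BAFF, was at 0.396, 0.345 and 0.354 FPKM in WT N and at 0.169, 0.233 and 0.327 FPKM in KO N, and was too low to be tested. The other receptors for these ligands were at or near 0. *Tnfrsf13c*, the BAFF receptor, was listed at 0 in all 6 libraries, and *Tnfrsf17*, which encodes BCMA, was at 0 in the WT N libraries and at 0, 0.121 and 0.200 FPKM in the KO N libraries.

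Some B-lineage transcripts were also called higher in KO N, against 27.1% of all tested genes. Of 14 listed B-lineage markers, 5 were at 0 in all 6 libraries and 4 were tested, of which 3 were higher and none lower (median log2 fold change 1.22). Their summed level was 5.59 to 7.39 FPKM in WT N and 20.0 to 21.1 FPKM in KO N. *Ighm*, the heavy chain of IgM, went from 0.391, 0.293 and 0.0573 FPKM to 9.66, 9.43 and 10.5 FPKM (log2 fold change 3.82, SE 0.18, limma adjusted p = 1.89e-05). *Cd79b*, a chain of the B cell receptor complex, rose from 0.805, 1.01 and 0.654 FPKM to 3.89, 3.55 and 4.86 FPKM (log2 fold change 1.80, adjusted p = 0.000268), and *Ebf1*, a transcription factor of early B cells and of stromal cells, rose by 0.65 on the log2 scale (adjusted p = 0.00729). Of the defining B cell markers, *Ms4a1* was at 0 in all KO N libraries and at no more than 0.0447 FPKM in WT N, and *Cd79a* was at no more than 0.0519 FPKM in any library. Among 5 plasma cell markers, 2 were tested, and *Sdc1*, the proteoglycan syndecan-1, fell from 111 to 117 FPKM in WT N to 36.2 to 37.8 FPKM in KO N (log2 fold change -1.61, adjusted p = 1.2e-05). The part of B-lineage cells in the rise of *Tnfrsf13b* was not tested.

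Most tested neutrophil markers were also called higher in KO N, against 27.1% of all tested genes. Of 16 listed neutrophil markers, 13 were tested, 11 were higher and 1 was lower in KO N (median log2 fold change 1.37), and their summed level was 202 to 262 FPKM in WT N and 559 to 573 FPKM in KO N. *Ngp*, a granule protein, rose from 10.7, 12.6 and 15.3 FPKM to 105, 106 and 110 FPKM, and *Ltf*, lactoferrin of the secondary granules, from 4.23, 3.73 and 3.80 FPKM to 34.1, 37.0 and 39.9 FPKM. The granule genes *Lcn2* and *Camp* rose by 2.31 and 1.78 on the log2 scale (adjusted p = 2.16e-05 and 0.000241). *Ly6g*, the marker of the sort, was at 0 in WT N and at 0.660, 0.547 and 0.403 FPKM in KO N. *Cd4*, the only tested gene of 10 T and NK cell markers, rose from 2.09, 1.75 and 1.43 FPKM to 6.01, 5.59 and 5.07 FPKM (log2 fold change 1.43, adjusted p = 0.000376), while *Cd3e*, a defining T cell gene, did not exceed 0.0321 FPKM. Of 8 dendritic cell markers 1 was tested and it was higher, and of 8 spinal cord markers 1 was tested and it was not called. The part of these cells in the values of *Tnfrsf13b* and *Tnfrsf11a* was not tested.

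**Figure D3:**
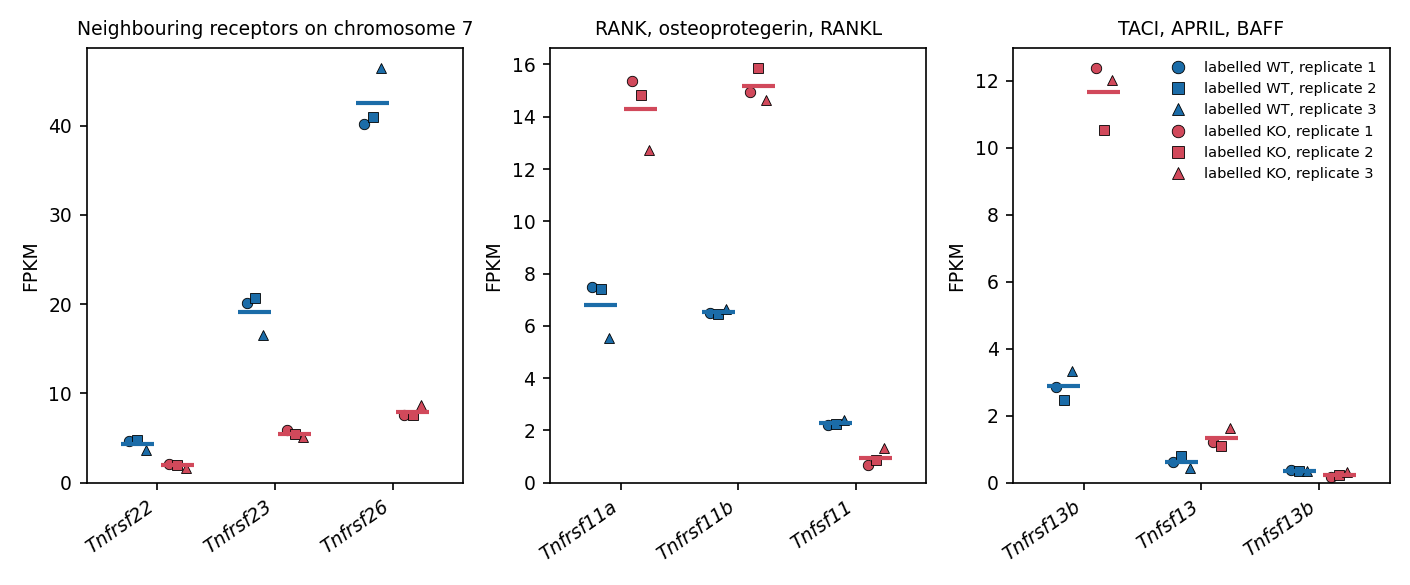
FPKM in the 3 WT N and 3 KO N libraries of 3 sets of genes: *Tnfrsf22* with its genomic neighbours *Tnfrsf23* and *Tnfrsf26*, *Tnfrsf11a* with *Tnfrsf11b* and *Tnfsf11*, and *Tnfrsf13b* with its ligand genes *Tnfsf13* and *Tnfsf13b* (points are libraries, bars are means). The neighbours on chromosome 7 are all lower in KO N, *Tnfsf11* goes opposite to its receptor and decoy, and the ligands of TACI stay under 2 FPKM.

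*Tnfrsf22* encodes a mouse decoy receptor for TRAIL, the ligand made by *Tnfsf10*. Its gene lies on the minus strand at chr7:143634806-143649661, between *Tnfrsf26* at chr7:143607659-143628722 and *Tnfrsf23* at chr7:143665809-143685872, with gaps of 6083 and 16147 bases and 0 coding genes in either gap. *Tnfrsf22* was at 4.64, 4.79 and 3.70 FPKM in WT N and at 2.15, 1.98 and 1.68 FPKM in KO N. The highest KO N library was below the lowest WT N library. It fell to 0.443 of its WT N mean (4.38 ± 0.587 to 1.94 ± 0.237 FPKM, mean ± SD, n = 3 each). This was a log2 fold change of -0.998 (SE 0.13, 95% interval -1.32 to -0.68, limma adjusted p = 0.00162). Leaving out each library in turn gave -1.10 to -0.92, and median-of-ratios scaling gave -1.19.

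The neighbours of *Tnfrsf22* fell further. *Tnfrsf23*, the other TRAIL decoy receptor, was at 20.2, 20.6 and 16.5 FPKM in WT N and at 5.90, 5.45 and 5.15 FPKM in KO N (log2 fold change -1.70, SE 0.11, limma adjusted p = 7.77e-05). *Tnfrsf26*, a closely related receptor, was at 40.2, 40.9 and 46.5 FPKM in WT N and at 7.55, 7.54 and 8.68 FPKM in KO N (log2 fold change -2.35, SE 0.10, limma adjusted p = 1.09e-05). In all 6 libraries *Tnfrsf22* was the lowest of these 3 genes. The annotated transcripts of *Tnfrsf22* share 20.8% of their 75-base windows with other genes, *Tnfrsf23* among them, and *Tnfrsf23* shares 13.1% of its own with *Tnfrsf22*, whereas *Tnfrsf26* shares 0. Reads of *Tnfrsf22* and the more abundant *Tnfrsf23* may thus have been divided between the pair. Both the level of *Tnfrsf22* and the size of its fall are therefore uncertain. An antisense gene, E230032D23Rik, overlaps *Tnfrsf22* without overlap of exons and had a mean of 1.08 FPKM, and the strandedness of the libraries is not given in the sources used here. *Tnfsf10*, the gene of TRAIL, fell from 1.50, 1.65 and 1.24 FPKM in WT N to 0.210, 0.106 and 0.185 FPKM in KO N (log2 fold change -1.55, SE 0.15, limma adjusted p = 0.000385). *Tnfrsf10b*, the signalling TRAIL receptor of the mouse, was at 3.04, 2.91 and 2.52 FPKM in WT N and at 4.59, 3.79 and 3.71 FPKM in KO N (log2 fold change 0.44, adjusted p = 0.0277), and that call was lost after median-of-ratios, upper-quartile and quantile scaling (0.22 to 0.26, adjusted p of 0.122 to 0.172), after rescaling to TPM, without a filter on low values, and without replicate 1 or 2 of either group (adjusted p of 0.05 to 0.102).

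The wider family can be set beside the 10 receptors and beside all tested genes, of which 27.1% were higher and 10.5% lower. Of 18 other receptors of the family, 8 were tested, 3 were higher and 3 lower, with a median log2 fold change of -0.40 against 0.06 in the 10 receptors and 0.19 in all tested genes. Besides the genes already given, *Cd40*, a costimulatory receptor of antigen-presenting cells, fell from 2.11, 2.47 and 2.70 FPKM in WT N to 0.435, 0.366 and 0.634 FPKM in KO N (log2 fold change -1.59, SE 0.15, limma adjusted p = 0.000394). Of 18 ligands, 8 were tested, 2 were higher and 6 lower, with a median log2 fold change of -0.95. *Tnfsf12*, which encodes TWEAK, was among the 2 that rose (33.3, 29.8 and 32.2 FPKM in WT N and 47.1, 46.9 and 51.3 FPKM in KO N, log2 fold change 0.60, adjusted p = 0.00182). The other 10 ligands were too low to be tested, and the summed level of all 18 overlapped between the groups, at 61.1 to 66.1 FPKM in WT N and 62.4 to 68.0 FPKM in KO N. *Tnfsf12*, which rose, was the largest part of that sum, with means of 31.8 FPKM in WT N and 48.4 FPKM in KO N. *Tnf*, the next largest, went from a mean of 16.7 FPKM to 7.70 FPKM. The overlap of the sums therefore does not mean that the single ligands were unchanged.

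**Figure D4:**
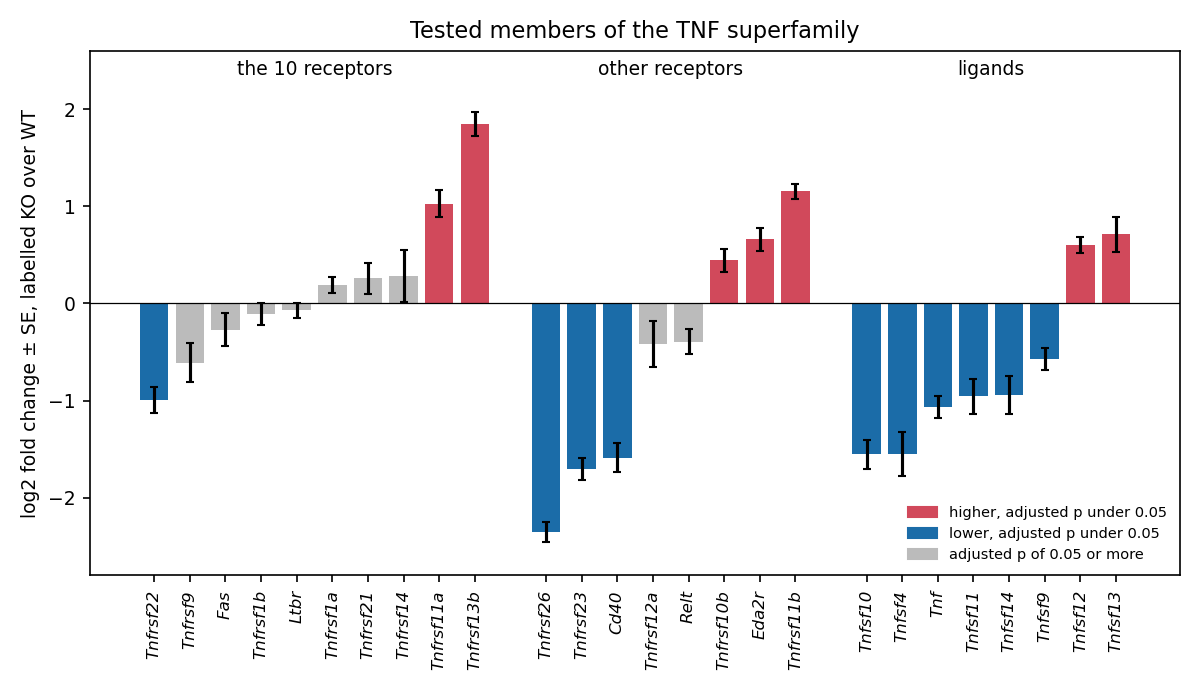
Log2 fold change (KO N against WT N) with its SE for the 10 receptors, 8 other receptors and 8 ligands of the TNF superfamily that were tested, with called genes in red (higher) or blue (lower) and the others in gray. Of the 8 ligands 6 lie below 0, and the 10 receptors are split evenly around 0 with *Tnfrsf13b* the farthest above.

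The proteins that act below these receptors were read from 3 lists, beside 27.1% higher and 10.5% lower among all tested genes. Of 30 tested adaptors and enzymes that sit next to the receptors, 8 were higher and 8 lower, with a median log2 fold change of -0.02. *Mlkl*, the effector of necroptosis that can follow TNFR1, fell from 22.3, 20.3 and 24.2 FPKM in WT N to 4.96, 5.95 and 5.63 FPKM in KO N (log2 fold change -1.92, SE 0.11, limma adjusted p = 3.42e-05). *Daxx*, a protein first found as a partner of Fas, fell by 1.52 on the log2 scale (adjusted p = 0.00102), and *Tnfaip3*, the ubiquitin-editing brake on TNF signalling known as A20, fell by 1.08 (adjusted p = 0.00509). *Map3k5*, the stress kinase ASK1, rose by 1.03 on the log2 scale (adjusted p = 0.00226).

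Of 14 NF-kB subunits, inhibitors and kinases tested, none was higher and 4 were lower, with a median log2 fold change of -0.17. All 4 belong to the IkB family, whose members hold or modify NF-kB, and several of which are themselves NF-kB targets. *Nfkbia* fell from 69.1, 70.0 and 77.4 FPKM in WT N to 35.1, 34.1 and 36.2 FPKM in KO N (log2 fold change -1.03, SE 0.08, limma adjusted p = 0.000163). *Nfkbib*, *Nfkbid* and *Bcl3* fell with log2 fold changes of -0.65 (adjusted p = 0.00117), -0.43 (adjusted p = 0.0137) and -0.35 (adjusted p = 0.0265). The call of *Bcl3* was lost without replicate 1 or 2 of either group (adjusted p of 0.0733 to 0.104), and that of *Nfkbid* without WT N replicate 1 (adjusted p = 0.0523).

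TNF receptors are also cut from the cell surface, mainly by ADAM17, and RNA levels do not show how much receptor the surface holds. Of 8 genes of receptor shedding, all tested, 1 was higher and 3 lower, with a median log2 fold change of -0.35. *Rhbdf2*, which carries ADAM17 to the surface in macrophages, fell from 25.0, 24.1 and 18.2 FPKM in WT N to 11.4, 12.2 and 11.5 FPKM in KO N (log2 fold change -0.90, SE 0.13, limma adjusted p = 0.00226). *Timp3*, the inhibitor of ADAM17, fell by 0.54 on the log2 scale (adjusted p = 0.0109), and *Erap1*, an aminopeptidase that has been tied to TNFR1 shedding, fell by 0.83 (adjusted p = 0.000909). *Frmd8*, which stabilises the complex of ADAM17, was higher with 0.38 (adjusted p = 0.00861), a call lost after median-of-ratios and upper-quartile scaling (0.16 and 0.17, adjusted p = 0.169 and 0.14).

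Macrophage markers moved in both directions beside these receptors. Of 8 tested, 2 were higher and 2 lower in KO N, with a median log2 fold change of 0.23. Among all tested genes 27.1% were higher and 10.5% lower. *Cd14*, the co-receptor for lipopolysaccharide, fell by 3.33 on the log2 scale (adjusted p = 6.82e-06) and *Fcgr1*, the high-affinity IgG receptor, by 1.83 (adjusted p = 7.17e-06). *Mertk*, a receptor for apoptotic cells, and *Adgre1*, a surface marker of mature mouse macrophages, rose by 0.72 and 0.30 (adjusted p = 0.0166 and 0.0449), and both calls were lost after median-of-ratios scaling (adjusted p = 0.0508 and 0.579), that of *Adgre1* also after upper-quartile scaling (adjusted p = 0.498), after rescaling to TPM, without a filter on low values, and with a robust or untrended variance. The call of *Mertk* was also lost without KO N replicate 1 or 2 (adjusted p = 0.0621 and 0.0618), and that of *Adgre1* without any 1 library other than WT N replicate 3 (adjusted p of 0.0599 to 0.154).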

How the data were processed

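RNA-seq values of 6 libraries of mouse BMDMs were used, 3 of the WT N and 3 of the KO N group. The table deposited by the authors holds FPKM of 55335 Ensembl identifiers in each library. The submitters' processing notes name fastp 0.17.1, HISAT2 2.1.0, DESeq2 1.18.1 and R 3.4.3. The quantification tool, annotation and genome build are not given in the sources used here, and for RNA extraction, library preparation and sequencing the labels and the methods differ. FPKM are relative to the total of a library, so a change in abundant genes shifts all others.

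Symbols and positions came from GENCODE M21 (GRCm38), which matched 55154 identifiers (99.7%), and promoters from the RefSeq table for GRCm38.p6. Only 39.7% to 43.5% of the low values were near (0.1 or closer to) whole multiples of the smallest step, and 20% is what chance gives, so no count test was possible. Depths quoted are those implied by that step.

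For testing, limma 3.58.1 (R 4.3.3) was fitted to log2(FPKM + 0.5) without covariates, with moderated variances that follow a trend (eBayes) and two-sided p-values. It covered the 13367 genes averaging 0.5 FPKM or more, and p-values were adjusted by Benjamini-Hochberg over these genes. Fold changes on this scale understate those of low genes. The receptors, the gene lists, the tests and the alternatives were chosen with earlier results of these data known. Named genes are the 10 receptors, their ligands, *Cd177*, defining markers of other cells, and from each list the 4 genes with the largest change among called genes averaging 1 FPKM or more. *Tnfrsf13c*, *Tnfrsf17* and *Tnfrsf10b* were named after their values were seen. The receptor ratio was tested with an exact permutation test. Of 31 adaptors and enzymes listed, 30 were found by symbol. The steps were tested on simulated data with known changes. Alternatives were other pseudocounts, filters, scalings, variance estimates and thresholds, the replicate number as a block, and each library left out in turn. Python 3.11.15 with pandas 2.3.3, numpy 2.4.6, scipy 1.17.1 and matplotlib 3.10.9 was used for the other steps.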

Additional observations from a re-analysis of the deposited data

How the results depend on the processing

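The rises of *Tnfrsf13b* and *Tnfrsf11a* were called under every alternative run, and the fall of *Tnfrsf22* under every one except the filter at a mean of at least 5 FPKM, where it, *Fas* and *Tnfrsf9* were not tested and 0 receptors were called lower, and the study's rule (fold change above 2, unadjusted p under 0.05), where its fold on the log2(FPKM + 0.5) scale fell just short and 0 were called lower. No alternative addressed the sequence that *Tnfrsf22* shares with *Tnfrsf23*. Receptors called lower numbered 4 after median-of-ratios scaling (*Tnfrsf22*, *Tnfrsf9*, *Tnfrsf1b* and *Ltbr*), 3 after upper-quartile scaling, 2 after quantile normalization, 2 without a trend in the variance, and 1 to 3 when a library was left out (3 without WT N replicate 3, with *Tnfrsf9* and *Tnfrsf1b* added). Below the filter, *Tnfrsf9* was not tested without WT N replicate 1 or 2, nor with the filter at a mean of at least 1 FPKM. *Tnfrsf1a* turned to -0.035 and -0.021 and *Csf1r* to -0.12 and -0.10 on the log2 scale after median-of-ratios and upper-quartile scaling, and *Tnfrsf14* ranged from -0.018 to 0.49 with a library left out. Beyond the shift of the median gene by scaling, the cause was not tested. Genes called higher numbered 1756 with the filter at 5 FPKM, 2044 and 2112 after median-of-ratios and upper-quartile scaling, 2007 at an adjusted p under 0.01 and 893 by the study's rule. Genes called lower numbered 2263 and 2157 after these scalings, 1928 after quantile normalization and 1389 without a trend in the variance. They numbered 1059 to 1707 with a library left out, 922 at 0.01 and 592 by the study's rule. The log2 ratio of *Tnfrsf1b* to *Tnfrsf1a* differed by -0.43 to -0.21 with a library left out (p of 0.2 to 0.6 by exact permutation). Replicate numbers are shared by the groups, but same-numbered libraries deviated together with correlations of 0.12, 0.04 and 0.26 and only 2 of 6 libraries correlated best with their own number, so the numbers were not taken as pairs. Those 2 were replicate 3 of each group, which correlated at -0.23 to -0.13 with replicates 1 and 2 of the other group. Whether replicate 3 of both groups shared a batch was not tested. With the replicate block, 4253 genes were called higher and 1681 lower, 2 receptors higher and 1 lower, and the ratio differed by -0.31 (exact p = 0.25, the smallest that 3 pairs allow). Among the 10 receptors, *Tnfrsf9* rests on the fewest implied fragments (11 to 39 per library).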
